A study of Drosophila melanogaster with 18 samples.

Results

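The 35 genes described here encode the machinery of autophagy and of the fusion of autophagosomes with lysosomes. They were taken by symbol from the deposited table, and all 35 were found among its 16438 genes. All 35 also averaged at least 15 counts over the libraries and so were among the 12460 genes tested. The list covers the Atg genes, the Vps34 lipid kinase complex, the SNAREs, tethering subunits and Rab GTPases of fusion, the cargo receptor *ref(2)P*, the regulator *Mitf* and the lysosomal protease *cathD*.

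Fat bodies of female *D. melanogaster* came from the Netherlands (Dutch, NL) and from Zambia (Zambian, ZI). Both populations were sampled as early wandering larvae, whose gut still held dyed food, as late wandering larvae, whose gut was clear, and as white prepupae. There were 3 libraries for each of the 6 combinations, 18 in all. Each library held RNA pooled over 12 isofemale strains in NL or 10 in ZI, so it gave a population average and the variation among strains within a population could not be seen. Neither population carried an introduced allele or had a treatment other than the dyed food.

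The larval fat body stores fat, glycogen and protein and serves the fly as liver and adipose tissue. At the end of larval life, when ecdysone rises and feeding stops, its cells begin developmental autophagy. A membrane then grows around cytoplasm, closes into an autophagosome and fuses with lysosomes, where hydrolases degrade the content. The induction complex around the kinase Atg1 starts the process, and the Vps34 complex marks the membrane with a phosphorylated lipid. Atg9, Atg2 and the Atg18 proteins supply lipid, and a ubiquitin-like conjugation system attaches Atg8 to the membrane. Syx17, Snap29 and Vamp7 form the SNARE bridge to the lysosome, with Rab7, Rab2 and the HOPS tether. Insulin and TOR signalling hold autophagy back in feeding larvae.

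Totals per library were 30029493 to 33687433 counts in NL early, 22926726 to 28515174 in NL late and 14998610 to 30328600 in NL prepupal libraries. In ZI they were 29527977 to 37250385, 30714013 to 36029384 and 17830666 to 32532383 at the same stages. Replicates differed by more than sampling noise, with a chi-square per gene of 6.45 to 102 between libraries of a group, so each was counted as a sample. The 8 fat body markers summed to 262000 to 584000 CPM (counts relative to the TMM-scaled library total) in every library, against at most 653 CPM for any list of markers of another tissue. The sum of the fat body markers was lower at the later stages, with 262000 to 384000 CPM in NL late and 341000 to 442000 in ZI late libraries, against 519000 to 584000 in NL early and 494000 to 568000 in ZI early libraries. *Fbp1* went the other way, with means of 62200, 113000 and 180000 CPM in NL and 81800, 206000 and 223000 in ZI early, late and prepupal libraries. Each other marker of that list had lower means at both later stages than at the early one. Muscle markers summed to 89.5 to 179 CPM in NL late and 43.5 to 59.0 in ZI late libraries.

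The level of the 35 genes spanned 3 orders of magnitude when compared per length, as TPM (a length-corrected share of all counts) averaged over the 18 libraries. *cathD*, which encodes an aspartic protease of the lysosome, was the highest at 1790 TPM, with single libraries between 683 and 3100. *Atg8a*, the ubiquitin-like protein that coats the autophagosome, followed at 360 TPM, and *cathD* exceeded it 4.96-fold. *Rab7*, a GTPase of late endosomes, had 170 TPM and *ref(2)P*, the fly p62 that carries ubiquitinated cargo, 145 TPM. These 4 were the members above 100 TPM. Another 16 lay between 10 and 100 TPM, among them *Vamp7* at 78.1, *Atg18b* at 75.7, *Atg3* at 70.5, *Rab2* at 66.7, *Atg7* at 63.9 and *Atg1* at 48.3 TPM. The remaining 15 lay below 10 TPM, including all 5 members of the Vps34 complex at 7.26 to 8.80 TPM. The lowest were *Atg12* at 3.82, *Atg10* at 1.63 and *Atg8b* at 1.42 TPM. The median member had 15.2 TPM against 3.48 TPM for all genes tested, and 33 of the 35 lay above that median.

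**Figure D1:**
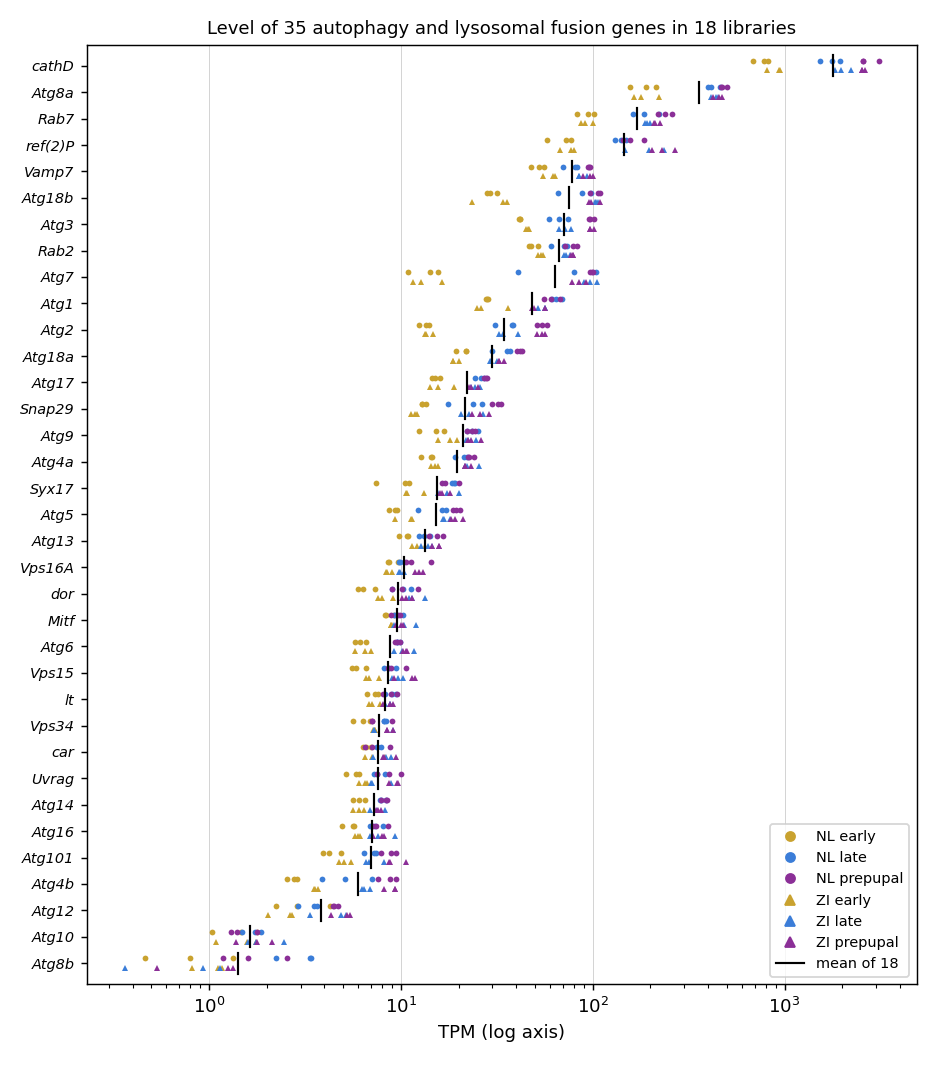
Level of each of the 35 genes in each of the 18 libraries, in TPM on a log axis, with circles for NL, triangles for ZI, colour for stage and a black bar for the mean of the 18. *cathD* averaged 1790 TPM and *Atg8b* 1.42 TPM, and the stages lay furthest apart in *cathD*, *Atg7*, *Atg18b* and *Atg2*.

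In TPM, the summed level of the 35 genes was higher at each later stage. It averaged 1530 ± 130 TPM in NL early, 3260 ± 363 in NL late and 4540 ± 361 in NL prepupal libraries (SD, n = 3 each). In ZI the sums were 1710 ± 128, 3650 ± 167 and 4340 ± 58.0 at the same stages (SD, n = 3 each). *cathD* alone made up 2740 ± 310 of the sum in NL prepupal and 2570 ± 56.5 in ZI prepupal libraries. TPM is a share of all counts, of which the summed fat body markers, storage proteins among them, took less at the later stages, although *Fbp1* took more. In TMM-scaled CPM, the scale used for the comparisons of single genes, the sums were 2600 ± 389, 3850 ± 205 and 5210 ± 318 in NL and 2490 ± 322, 4960 ± 324 and 5100 ± 413 in ZI early, late and prepupal libraries (SD, n = 3 each). The ZI late and prepupal sums overlapped on that scale. Without *cathD* they were 2420 ± 277 CPM in ZI late and 2270 ± 188 CPM in ZI prepupal libraries (SD, n = 3 each). In RNA from whole tissue, fewer cells of a type and less RNA per cell cannot be told apart.

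Between early and late wandering, 11 of the 35 genes rose and 1 fell in NL (edgeR quasi-likelihood test, adjusted p under 0.05), while 24 rose and none fell in ZI. The NL shares of 31.4% and 2.86% stood against 18.4% of all genes that rose and 23.2% that fell, and the ZI share of 68.6% against 18.7% that rose and 17.0% that fell. Late libraries lay wholly above early ones for 15 members in NL, where 24.4% of all genes did so, and for 23 in ZI, where 22.9% did. The median log2 fold change of the members was 0.18 in NL, against 0.14 over all genes, and 0.50 in ZI, against −0.11. Members are well expressed as a rule, with 29 of 35 at a mean of at least 10 CPM, and among all 4556 genes at that level 19.2% rose in NL and 36.9% in ZI. The median of those 4556 genes was −0.18 in NL and 0.14 in ZI. The NL count depended on the scaling, since 24 of the 35 were called with upper-quartile factors and 24 with TMM factors from the well-expressed genes. In ZI the 9 alternative settings called 20 to 23, so NL had no fewer calls than ZI with those factors. The shares of all genes called with those factors are not given here, so the 24 cannot be set against them.

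White prepupae were compared with early wandering larvae in the same way. Relative to early wandering, 15 members were higher and 2 lower in NL prepupal libraries, where 19.4% of all genes were higher and 26.1% lower. In ZI prepupal libraries 16 were higher and none lower, where 18% of all genes were higher and 23.1% lower. Among the genes with at least 10 CPM, 29% were higher and 41.5% lower in NL, and 31.4% higher and 36.3% lower in ZI. With upper-quartile factors 25 members were higher and none lower in NL, a count that cannot be set against all genes, whose shares under those factors are not given here. The 15 that rose in NL were all among the 16 of ZI, which is 93.8% of the ZI set, and *Atg6* made the difference. The share of all genes so shared is not given here. In the paper most genes called between these stages were also shared by both populations, so sharing alone does not set the members apart. Leaving out 1 library ended the call of *Atg101* in NL (0.37 without NL prepupal 2) and those of *Atg1* (0.39 without ZI early 1) and *Atg6* (0.41 without ZI early 1 and 0.38 without ZI prepupal 1) in ZI. Between late wandering and prepupa, 5 members rose in NL (*Atg4b*, *cathD*, *Atg2*, *Atg3* and *Snap29*), and none fell, where 7.68% of all genes rose and 7.45% fell, and the *Snap29* call was lost without NL late 1 or NL prepupal 1 (0.35 to 0.43). In ZI *Atg2* alone was called higher and none lower, where 3.64% of all genes rose and 8.69% fell. The stage with the highest mean depended on the scale. It was the prepupal one for 22 members in NL and 8 in ZI in TMM-scaled CPM, and for 25 members in each population in TPM. The populations' early libraries are different samples, but within a population the late and prepupal changes share their early libraries.

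**Figure D2:**
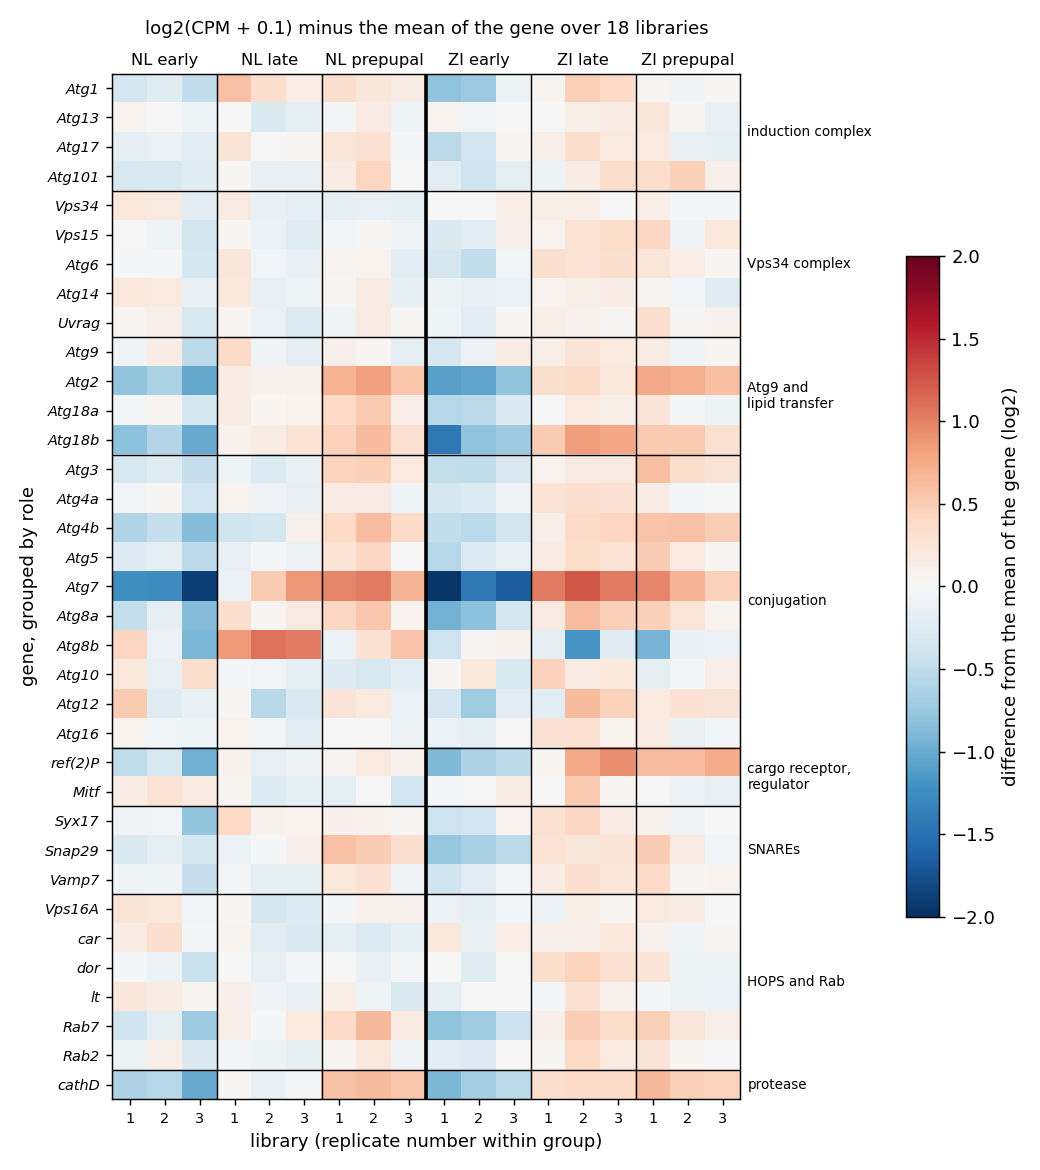
Each row is a gene, grouped by role, and each column a library, with colour giving log2(CPM + 0.1) minus the mean of that gene over the 18 libraries. Early libraries of both populations are blue for *Atg2*, *Atg18b*, *Atg7*, *ref(2)P* and *cathD*, late libraries are paler in NL than in ZI for most genes, and *Atg8b* is red in the 3 NL late libraries.

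The largest stage change was that of *Atg7*, the E1-like enzyme that activates both Atg8 and Atg12 (2R, 18620466 to 18625044, release 6 assembly). In NL its level was 70.9, 110 and 141 CPM in late libraries, against 33.0, 32.1 and 20.9 CPM in early ones. ZI values were 158, 182 and 158 CPM in late libraries, against 20, 28.4 and 24.5 CPM in early ones. All late libraries lay above all early ones in both populations, and the 3 NL late libraries were spread over a wide range below the ZI ones. The late over early log2 fold change was 1.90 in NL (SE 0.22, adjusted p = 1.19e-06, 3.74-fold) and 2.77 in ZI (SE 0.23, adjusted p = 7.9e-09, 6.82-fold). Prepupal libraries had 151, 159 and 123 CPM in NL and 151, 123 and 106 CPM in ZI. Both sets lay far above the early libraries and overlapped each other, at 5.03-fold the early level in NL and 5.20-fold in ZI.

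*Atg2* encodes the rod-shaped protein that moves lipid into the growing membrane. It had 142, 136 and 136 CPM in NL late libraries, against 74.2, 82.9 and 63.0 CPM in NL early ones. ZI libraries held 161, 167 and 149 CPM at the late stage, against 60.5, 61.7 and 74.6 CPM at the early one. *Atg2* then had 209, 227 and 189 CPM in NL prepupal and 218, 212 and 195 CPM in ZI prepupal libraries. It was the one member called higher in each step of both populations, with no overlap between stages in either. The log2 fold change of prepupal over early libraries was 1.51 in NL (SE 0.13, adjusted p = 5e-09) and 1.67 in ZI (adjusted p = 1.65e-09). The ZI step of prepupal over late libraries, 0.39 (SE 0.12, adjusted p = 0.0442), was lost in 8 of the 18 fits that left out 1 library, at 0.35 to 0.44. Those libraries were NL late 2, NL prepupal 1 and all 3 ZI late and all 3 ZI prepupal ones.

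*Atg18b*, one of the proteins that bind the lipid made by Vps34, had 117, 123 and 134 CPM in NL late libraries, against 62.4, 73.3 and 55.2 CPM in NL early ones. The ZI libraries held 157, 197 and 190 CPM in late and 41.2, 63.2 and 67.1 CPM in early libraries. Late over early was 0.97 in NL (SE 0.16, adjusted p = 7.7e-05) and 1.67 in ZI (SE 0.17, adjusted p = 1.06e-07) on the log2 scale. Prepupal libraries held 152, 171 and 137 CPM in NL and 159, 159 and 136 CPM in ZI. The log2 fold change of prepupal over late libraries was 0.30 in NL and −0.26 in ZI, neither called. Its paralogue *Atg18a* changed less, by 0.57 in ZI late over early, and passed the test in prepupal over early libraries of both populations at 0.46 in NL and 0.51 in ZI. *Atg9*, the transmembrane protein of the vesicles that seed the membrane, was called in none of the stage or population comparisons.

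Within the conjugation system, 4 of 10 genes rose by late wandering in NL and 8 of 10 in ZI, where 18.4% and 18.7% of all genes did, and 19.2% and 36.9% of those with at least 10 CPM. *Atg8a* had 352, 287 and 314 CPM in NL late libraries, against 201, 244 and 152 CPM in NL early ones. Zambian libraries had 315, 427 and 388 CPM at the late stage and 144, 158 and 218 CPM at the early one. The stages did not overlap in either population, and late over early was 0.67 in NL (SE 0.19, adjusted p = 0.00734) and 1.12 in ZI (SE 0.19, adjusted p = 7.93e-05). Prepupal libraries held 373, 404 and 292 CPM in NL and 389, 331 and 291 CPM in ZI, which overlapped the late ones in both.

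*Atg4b*, one of the proteases that trim and recycle Atg8, was low in NL late wandering, with 7.57, 7.81 and 10.6 CPM, against 6.53, 7.23 and 5.44 CPM in NL early libraries. In ZI it had 10.8, 13.0 and 13.5 CPM in late libraries, against 7.09, 6.80 and 7.73 CPM in early ones. Prepupal libraries had 13.2, 15.4 and 13.1 CPM in NL and 14.9, 15 and 14.1 CPM in ZI. In NL the log2 fold change was 0.44 in late over early (SE 0.15, adjusted p = 0.0212) and 0.68 in prepupal over late libraries (SE 0.14, adjusted p = 0.00187). The first step was 0.27 without NL late 3, the highest of its group, with an adjusted p of 0.159, and 0.70 without NL early 2. Without NL late 1 the steps were 0.72 and 0.51, and with upper-quartile factors 0.66 each. The first call was also lost without a filter, in DESeq2 and with only the groups compared (adjusted p = 0.0583 to 0.0886). Prepupal over early was 1.12 in NL and 1.03 in ZI. About 7.8% of the *Atg4b* exons lie opposite those of *Tmtc4*.

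The other conjugation genes changed less. *Atg3*, the E2-like enzyme that hands Atg8 to its lipid, rose by prepupa in both populations (0.71 in NL and 0.83 in ZI), and *Atg5*, part of the ligase that completes the transfer, did so too (0.56 and 0.59). In ZI *Atg12*, *Atg5*, *Atg3*, *Atg4a* and *Atg16* also rose from early to late wandering, by 0.80, 0.60, 0.57, 0.53 and 0.32 on the log2 scale. The rises of *Atg12* and *Atg16* were lost in 4 and 3 of the fits that left out 1 library, all of them ZI early or ZI late ones, at 0.62 to 0.85 and 0.28 to 0.32. With TMM factors from the well-expressed genes they were 0.66 and 0.20, and neither was called. *Atg12* was read from few counts, 0.690 to 1.90 CPM. *Atg10*, the E2-like enzyme for Atg12, was called in no comparison at 1.32 to 2.35 CPM, and 46.6% of its exons lie opposite *Dgk*. The sources used here do not say whether counting used the strand, so reads of such pairs cannot be told apart. The same holds for *Atg4a*, which shares 51.4% of its exon bases with *CG4629* on the opposite strand.

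*Atg8b*, the second Atg8 gene, which is known mainly from the male germ line, behaved in its own way. It had 1.07, 1.27 and 1.23 CPM in NL late libraries, from 30, 44 and 36 counts, against 0.768, 0.494 and 0.243 CPM in NL early ones. Its ZI values were 0.469, 0.186 and 0.447 CPM in late libraries, from 16, 5 and 15 counts, against 0.384, 0.558 and 0.585 CPM in early ones. The NL late libraries lay above every other library, and the remaining groups overlapped except NL prepupal, which lay above ZI late. The *Atg8b* mean of 17.83 counts over the 18 libraries passed the filter of 15 only with the NL late libraries included. Late over early was 1.27 in NL (SE 0.40, adjusted p = 0.0153) and −0.42 in ZI (SE 0.43, adjusted p = 0.487). The NL value was 0.84 and not called with the median of chemosensory receptor genes as a covariate (adjusted p = 0.172). NL prepupal libraries held 0.498, 0.691 and 0.861 CPM and ZI prepupal ones 0.240, 0.491 and 0.499 CPM.

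The cargo receptor *ref(2)P* rose by late wandering in both populations. It had 229, 194 and 201 CPM in NL late libraries, against 153, 174 and 111 CPM in NL early ones. In ZI it had 222, 365 and 413 CPM in late libraries, against 117, 140 and 150 CPM in early ones. Late libraries were higher than early ones throughout, and ZI late 1 stood well below its 2 replicates, inside the NL range. Late over early was 0.51 in NL (SE 0.19, adjusted p = 0.0333) and 1.30 in ZI (SE 0.19, adjusted p = 1.37e-05). The NL change was smaller by −0.79 on the log2 scale, which was not called (SE 0.26, adjusted p = 0.0630). Without NL late 3 the NL value was 0.54 and no longer called, and the call was also lost with RLE factors, without a filter and with only the groups compared (adjusted p = 0.0506 to 0.0652). Prepupal libraries had 223, 247 and 230 CPM in NL and 332, 331 and 363 CPM in ZI, which did not overlap. About 7.2% of the *ref(2)P* exons lie opposite *CG10337*. *Mitf*, the fly member of the TFEB family that controls lysosomal genes, was slightly lower in NL prepupal than NL early libraries, by −0.39 (SE 0.14, adjusted p = 0.0271), a call lost in 8 of the 18 fits without 1 library (−0.38 to −0.23). Those were without NL early 1, 2 or 3, NL late 1, NL prepupal 1 or 3, or ZI early 2 or 3.

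*cathD*, the end of the pathway, had 1990, 1790 and 1940 CPM in NL late libraries, against 1280, 1320 and 976 CPM in NL early ones. In ZI it had 2480, 2560 and 2570 CPM in late libraries, against 1050, 1220 and 1350 CPM in early ones. The late libraries of each population were tight and did not overlap between populations. Prepupal libraries reached 2940, 3050 and 2870 CPM in NL and 3080, 2720 and 2670 CPM in ZI. NL rose in both steps, with log2 fold changes of 0.68 in late over early (SE 0.14, adjusted p = 5.71e-04) and 0.63 in prepupal over late libraries (SE 0.14, adjusted p = 0.00294). ZI rose by 1.07 in the first step (SE 0.14, adjusted p = 3.57e-06), and its second step was 0.15 and not called. From early to prepupal the fold was 2.48 in NL and 2.34 in ZI.

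**Figure D3:**
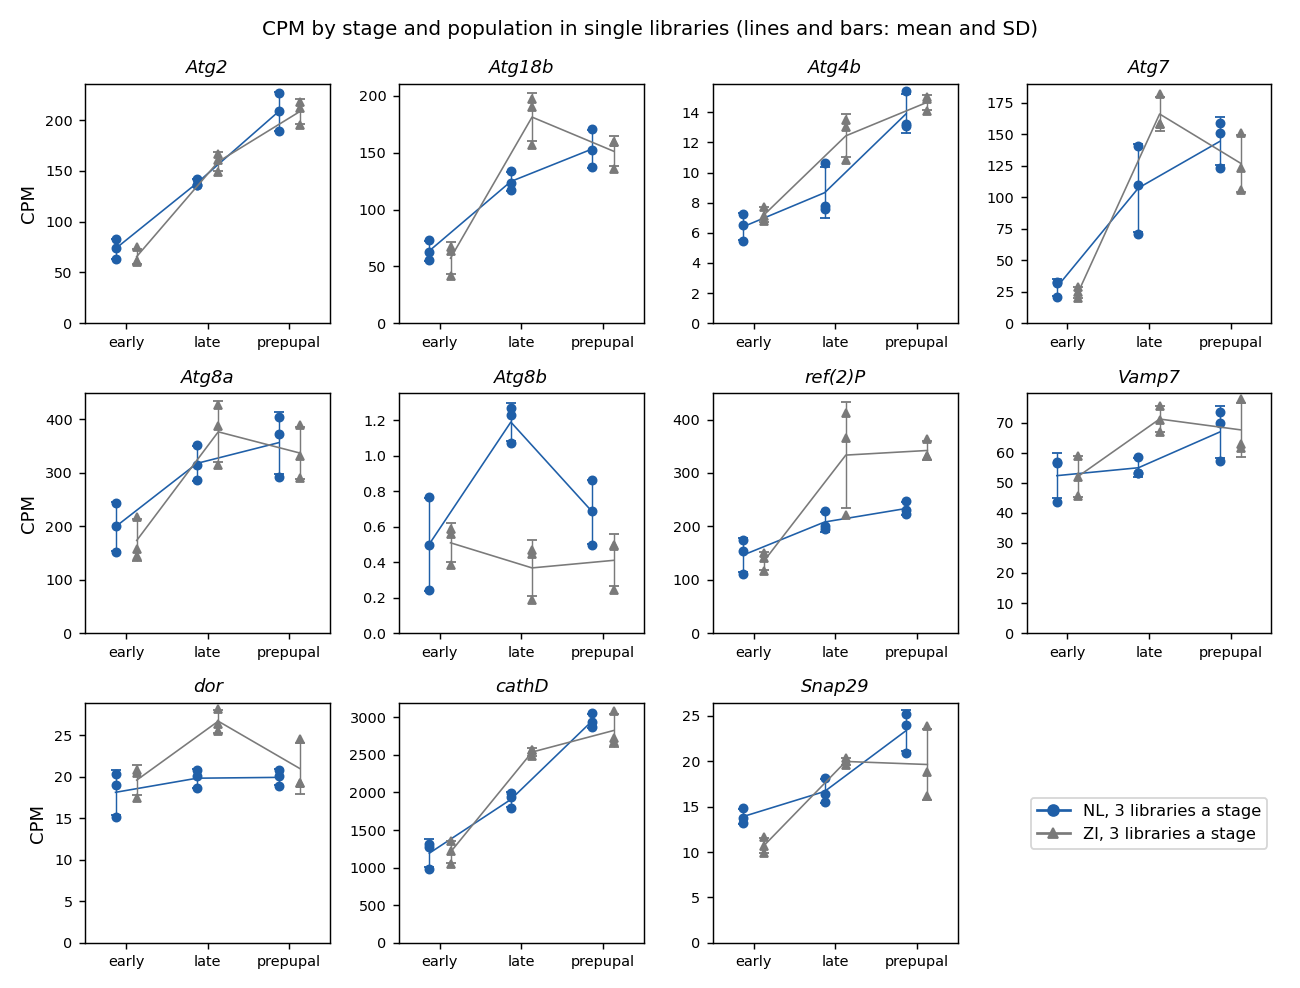
CPM of 11 genes by stage, with a point for each library (circles NL, triangles ZI), lines joining group means and bars for the SD of 3 libraries, on axes from 0. *Atg2* climbed over all stages in both populations, *Atg18b*, *Atg7* and *dor* had their highest mean in ZI at late wandering, and *Atg8b* was highest in NL at late wandering.

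Among the fusion genes, 1 of 3 SNAREs rose in NL between early and late wandering and all 3 in ZI, beside the shares of all genes given for the conjugation system. *Syx17*, the SNARE of the closed autophagosome, rose in both (0.46 in NL and 0.53 in ZI). Its NL call was lost with RLE factors, without a filter, in DESeq2 and with only the groups compared (0.42 to 0.46, adjusted p = 0.0637 to 0.0884). *Vamp7*, the SNARE of the lysosome, had 58.7, 53.3 and 53.2 CPM in NL late libraries and 56.5, 57.0 and 43.8 CPM in NL early ones, which overlapped. Its ZI libraries did not overlap, with 67.1, 75.8 and 71.0 CPM at the late and 45.5, 52.0 and 59.0 CPM at the early stage (0.45, adjusted p = 0.014). *Snap29*, which bridges both membranes, had 20.3, 19.6 and 20 CPM in ZI late libraries, against 9.93, 10.7 and 11.6 CPM in ZI early ones, and its NL values are given with the interaction. By prepupa both *Snap29* (0.75 in NL and 0.87 in ZI) and *Vamp7* (0.35 and 0.38) had risen in both populations, *Vamp7* to 70.0, 73.7 and 57.3 CPM in NL and 78.1, 61.8 and 63.1 CPM in ZI. *Rab7* rose in both by late wandering (0.52 in NL and 0.97 in ZI), and without NL late 3 the NL value was 0.47 and just missed the threshold at an adjusted p of 0.0505. *Rab2*, which also acts in fusion, rose in ZI by 0.37. The ZI calls of *Syx17* and *Vamp7* at late wandering were lost without ZI early 1 or ZI late 2 (0.44 and 0.47, 0.36 and 0.41), and that of *Rab2* without these or ZI late 3 (0.27 to 0.38). The prepupal call of *Vamp7* was lost in NL without NL prepupal 1, NL prepupal 2 or ZI late 3 (0.28 to 0.35) and in ZI without ZI early 1 or ZI prepupal 1 (0.29 and 0.26).

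The HOPS subunits moved little. *dor*, the fly Vps18, had 20.8, 18.6 and 20.1 CPM in NL late and 20.3, 19.0 and 15.1 CPM in NL early libraries, which overlapped. ZI libraries had 26.4, 28.2 and 25.5 CPM at the late stage, against 20.8, 17.5 and 20.5 CPM at the early one, with no overlap (0.45, adjusted p = 0.00805). Prepupal libraries had 20.8, 18.9 and 20.1 CPM in NL and 24.6, 19.2 and 19.2 CPM in ZI. *Vps16A* was lower in NL late than in NL early libraries, by −0.33 (SE 0.12, adjusted p = 0.0308). That call was lost in 7 of the 18 fits that left out 1 library, with values from −0.29 to −0.12. These were all 3 NL late libraries and NL early 1, NL early 2, ZI early 2 and ZI early 3. With upper-quartile factors it was −0.13 (adjusted p = 0.176). *car*, the fly Vps33A, was lower in NL prepupal than NL early libraries, by −0.37 (adjusted p = 0.0191), a call lost without NL early 1, NL early 2, NL late 1, NL prepupal 2, ZI early 2 or ZI early 3 (−0.35 to −0.15), and at −0.17 with upper-quartile factors (adjusted p = 0.178). *lt*, the fly Vps41, was called in no comparison.

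Upstream, 1 of 4 genes of the induction complex and none of 5 of the Vps34 complex rose by late wandering in NL, and 3 of 4 and 2 of 5 in ZI. Over all genes 18.4% rose in NL and 18.7% in ZI, and of those with at least 10 CPM 19.2% and 36.9%. No count of a role group was tested against these shares, and the groups hold few genes. *Atg1* rose by late wandering in both populations (0.71 in NL, adjusted p = 0.00189, and 0.83 in ZI), and its partners *Atg17* and *Atg101* rose in ZI (0.50 and 0.42), while *Atg13* was called nowhere. The *Atg101* rise was lost without ZI early 1, ZI late 2 or ZI late 3 and that of *Atg17* without ZI early 1 or ZI late 2, at 0.29 to 0.45. Of the Vps34 complex no gene passed the test in NL at any stage step. In ZI *Atg6*, the fly Beclin, rose by 0.59 and *Vps15*, the regulatory subunit, by 0.37 (adjusted p = 0.0455), and that value was lost in 7 of 18 fits at 0.29 to 0.37. Those were without ZI early 1, ZI late 2, ZI late 3, ZI prepupal 3, NL late 2, NL prepupal 1 or NL prepupal 2. *Vps34*, *Atg14* and *Uvrag* were called in no comparison, and 23.8% of the *Uvrag* exons lie opposite an antisense RNA. In all, 7 members were called in none of the comparisons, namely *Atg13*, *Vps34*, *Atg14*, *Uvrag*, *Atg9*, *Atg10* and *lt*.

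**Figure D4:**
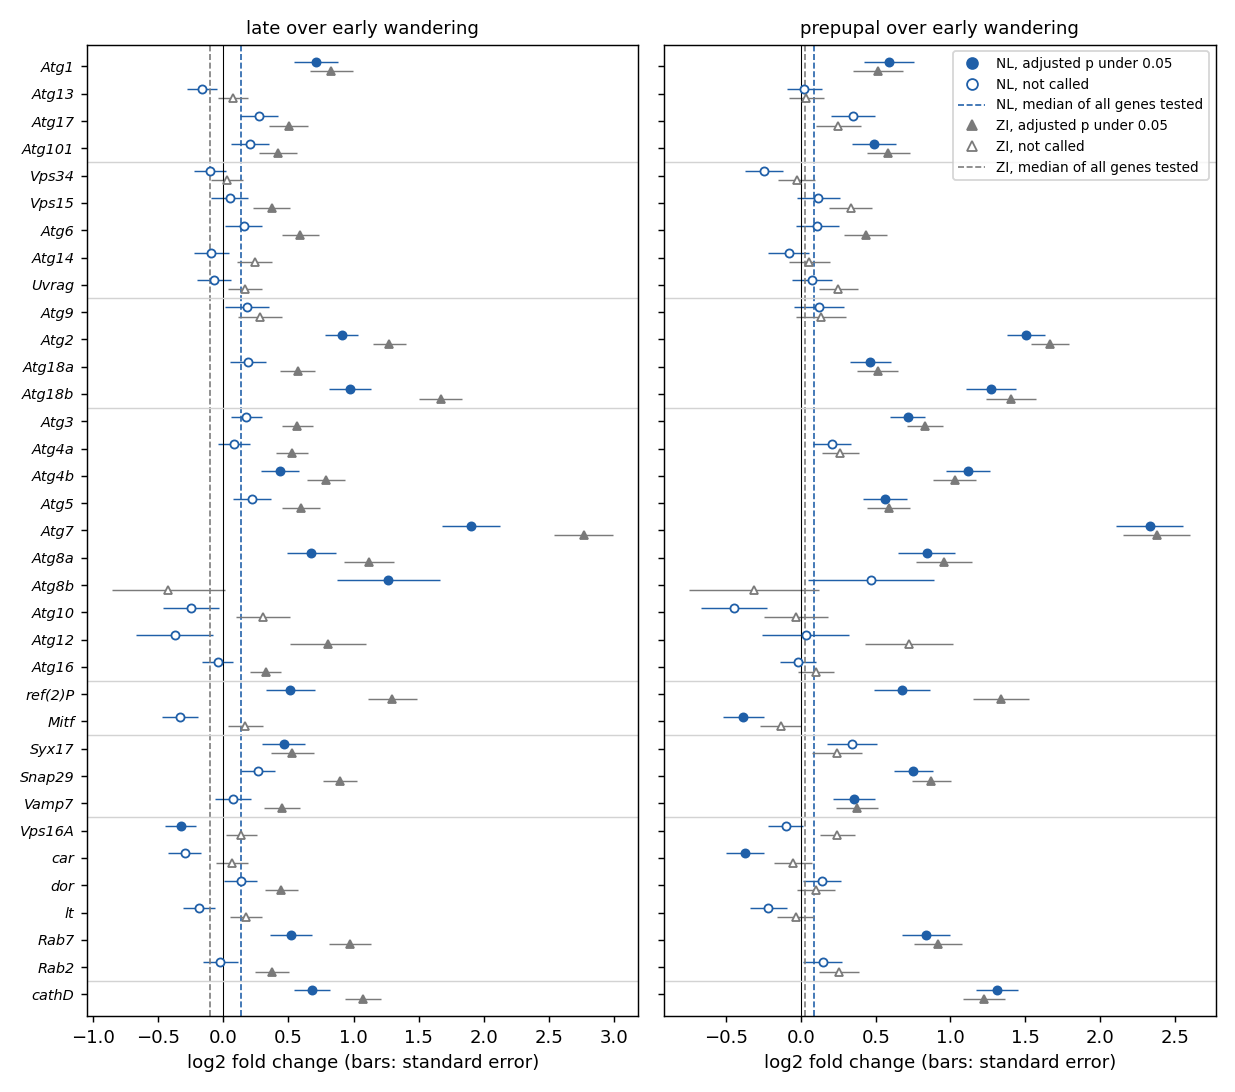
Log2 fold change with its standard error for each gene, late over early at left and prepupal over early at right, with circles for NL, triangles for ZI, filled where the adjusted p was under 0.05 and dashed lines at the median of all genes tested. To the right of 0, 11 NL circles and 24 ZI triangles are filled in the left panel, and 15 NL circles and 16 ZI triangles in the right panel.

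Between the populations no member differed at early wandering, where 7.53% of all genes did, and 3 members had an unadjusted p under 0.05 (*Atg18a* at 0.35, *Snap29* at 0.37 and *Vps16A* at 0.27). None differed at the prepupal stage either, where 4.75% of all genes did, and 2 had an unadjusted p under 0.05. These were *Atg18a* at 0.31 and *ref(2)P* at −0.55 (adjusted p = 0.112). DESeq2 also called none at either stage.

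At late wandering 8 members were lower and 1 higher in NL than in ZI, where 14.1% of all genes were lower and 13.7% higher. *Atg8b* was 3.15-fold higher in NL (log2 fold change 1.66, SE 0.40, adjusted p = 0.00582), in 1.07 to 1.27 CPM against 0.186 to 0.469 CPM. *ref(2)P* was lower in NL by −0.68 (SE 0.19, adjusted p = 0.0128), with overlapping libraries. *Atg7* was lower by −0.63 (SE 0.21, adjusted p = 0.0339), *Atg18b* by −0.54 (SE 0.16, adjusted p = 0.0193) and *Atg4b* by −0.52 (SE 0.14, adjusted p = 0.0113), with no overlap. The other 4 were *dor* at −0.43 (adjusted p = 0.0178), *cathD* at −0.41 (adjusted p = 0.0342), *Vamp7* at −0.37 and *Atg4a* at −0.35 (adjusted p = 0.0409). Of the 35 members 33 had a negative log2 fold change, and 18 had all NL libraries below all ZI ones, where 20.6% of all genes did. The median of the members was −0.28, against 0.04 for all genes and −0.24 for the genes with at least 10 CPM, of which 30.2% were lower in NL and 5.36% higher.

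These late differences depended on how the libraries were scaled. Upper-quartile factors moved the median of all genes by 0.21 and TMM factors from the well-expressed genes by 0.24, relative to TMM over all genes. The median of the members was then −0.07 or −0.04, and 2 or 3 members were called. *Atg8b* (1.86 and 1.89) and *ref(2)P* (−0.46 and −0.42) were called under both. *Atg18a*, at 0.22, was called higher in NL under the second. The median log2 CPM of 179 chemosensory receptor genes, known mainly from sensory neurons, was −0.46 to −0.14 in NL late and −1.36 to −0.74 in ZI late libraries. With that median as a covariate no member was called, the median was 0.03 and *Atg8b* had 0.98 (adjusted p = 0.339). Muscle markers, given above, and TMM factors (0.99 to 1.27 in NL late and 0.88 to 1.08 in ZI late libraries) also differed. Marker lists of other tissues did so too, with sums of 339 to 383 CPM in NL late and 541 to 565 in ZI late libraries for neurons, 348 to 379 and 398 to 441 for hemocytes, and 7.5 to 13.5 and 16 to 19.1 for the salivary gland. The neuron sum was mostly *Syt1* (mean 312 CPM in NL late and 521 in ZI late), while *elav*, *nSyb*, *brp* and *futsch* had higher means in NL late. Of the hemocyte list *srp* (153 and 220 CPM), *crq*, *NimC1*, *eater* and *Pxn* had lower means in NL late, and *Hml*, *PPO1* and *PPO2* higher ones. The part of these markers and factors in the result was not tested. Gonad markers summed to 11.3 to 11.9 CPM in NL late and 8.71 to 10.6 CPM in ZI late libraries, and their part in the *Atg8b* value was not tested.

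Single libraries mattered too. In place of 9 members, 5 were called without NL late 1, 1 without NL late 2, 2 without ZI late 2, 2 without ZI late 3 and 14 without ZI late 1. *Atg8b* was called in all 18 such fits, but it had passed the filter only through the NL late libraries, the group where it was high. The *ref(2)P* call was lost without NL late 2, ZI late 2 or ZI late 3 (−0.63 to −0.50), that of *dor* without NL late 2 or ZI late 2 (−0.39 and −0.38) and that of *Atg4b* without NL late 1, NL late 2 or ZI late 3 (−0.46 to −0.35). The *Atg18b* call was lost without NL late 1 or 2 or ZI late 2 or 3 (−0.53 to −0.42), and that of *cathD* without these or NL late 3 (−0.42 to −0.36). For *Atg4a* it was lost in 7 fits (−0.36 to −0.30), without NL early 1, NL late 2 or 3, ZI early 2 or any ZI late library. For *Atg7* it was lost in 8 fits (−0.67 to −0.32), without NL early 1 or 2, NL late 1 or 2, ZI early 2 or 3 or ZI late 2 or 3. *Vamp7* was the least stable, lost in 11 fits (−0.38 to −0.33), without NL early 1 or 2, any NL late library, NL prepupal 1, ZI early 2, ZI late 2 or 3 or ZI prepupal 2 or 3.

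**Figure D5:**
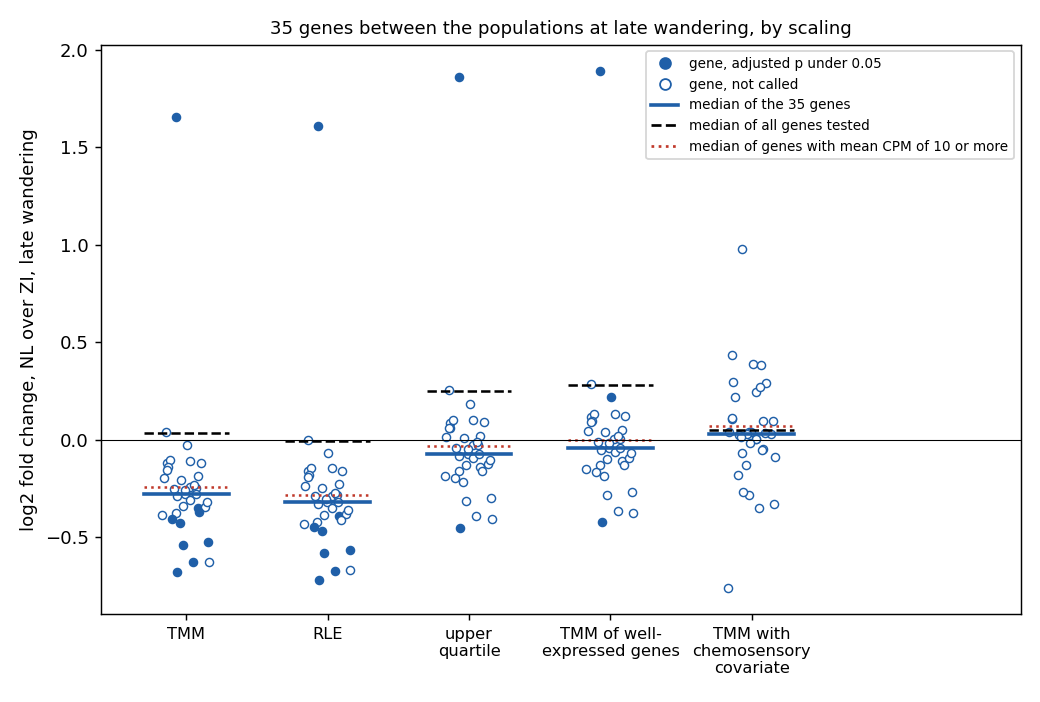
Log2 fold change of NL over ZI at late wandering for each of the 35 genes under 5 ways of scaling or adjusting the counts, filled where called, with lines for the median of the 35 (blue), of all genes (black dashes) and of genes with at least 10 CPM (red dots). The blue line lies at −0.28 with TMM, −0.07 with upper-quartile factors, −0.04 with TMM of well-expressed genes and 0.03 with the chemosensory covariate, and *Atg8b* is the highest point in each.

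Whether the populations differed in the stage change itself was tested as an interaction. No member passed it, where 3.48% of all genes did, although 8 members had an unadjusted p under 0.05 and the lowest adjusted p was 0.0773 for *Snap29*. DESeq2 called 1 member, *Atg7*. For late over early alone, 1 member passed, where 7.87% of all genes did, and 14 had an unadjusted p under 0.05. That member was *Snap29*, shown in full because of this value, with 15.5, 16.4 and 18.1 CPM in NL late libraries against 13.7, 14.8 and 13.2 CPM in NL early ones. Its change was 0.26 in NL and 0.90 in ZI, a difference of −0.63 (SE 0.18, adjusted p = 0.0438). NL prepupal libraries reached 25.2, 24.0 and 20.9 CPM and ZI prepupal ones 23.9, 18.8 and 16.2 CPM. The *Snap29* difference was lost in 9 of the 18 fits that left out 1 library (−0.65 to −0.54), namely without NL early 1 or 2, NL late 2, NL prepupal 1, ZI early 1 or 2, ZI late 2 or 3, or ZI prepupal 2. It was −0.33 with upper-quartile factors (adjusted p = 0.162). The call was also lost with factors of well-expressed genes, a mean of at least 100 counts, the replicate block and the chemosensory covariate.

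The 14 members called higher in ZI late libraries and not in NL had log2 fold changes of 0.32 to 0.90 in ZI and −0.37 to 0.27 in NL, 11 of them positive there. The difference itself passed the test only for *Snap29*. For prepupal over late no member and no gene at all passed the interaction test (0.0%), with 6 members at an unadjusted p under 0.05. For prepupal over early no member passed, where 1.48% of all genes did, and 1 had an unadjusted p under 0.05.

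Other genes of autophagosomes and lysosomes were counted in the same way. Of 28 listed, 27 passed the filter, and 6 rose and 2 fell by late wandering in NL (median log2 fold change 0.10), with 12 rising and 1 falling in ZI (median 0.33). The shares that rose, 22.2% in NL and 44.4% in ZI, stood beside 19.2% and 36.9% of the genes with at least 10 CPM. The order of the populations depended on the scaling, since with upper-quartile factors 17 rose and none fell in NL, and 13 rose and 1 fell in ZI. By prepupa 11 had risen and 2 fallen in NL, and 10 had risen and 2 fallen in ZI. Among genes with at least 10 CPM, 29% had risen and 41.5% fallen in NL, and 31.4% and 36.3% in ZI. *CtsL1*, a cathepsin L protease, had 183, 151 and 165 CPM in NL late libraries, against 79.0, 99.9 and 54.3 CPM in NL early ones. In ZI it had 212, 275 and 212 CPM in late libraries and 44.9, 47.9 and 54.7 CPM in early ones. Its rise was smaller in NL, by −1.15 on the log2 scale (adjusted p = 0.0173), and by −0.83 with upper-quartile factors (adjusted p = 0.0236), but it was not called with the chemosensory covariate (−0.59, adjusted p = 0.258). *Rubicon*, known as an inhibitor of autophagosome maturation, had 14.5, 14.9 and 14.9 CPM in NL late and 30.6, 19.4 and 44.9 CPM in ZI late libraries (−1.10, adjusted p = 5.31e-04), and rose from the early stage to the prepupa in both populations (1.89 in NL and 2.18 in ZI). *Hexo1*, a lysosomal hexosaminidase, was lower in NL late libraries by −0.85 and in NL prepupal ones by −0.57. Between populations 2 of the 27 were higher and 1 lower in NL at early wandering, 6 were lower at late wandering and 2 were lower at the prepupal stage. Over all genes 7.53% differed at early wandering and 4.75% at the prepupal stage. The late share of 22.2% lay below the 30.2% of genes with at least 10 CPM that were lower, and with upper-quartile factors 5 were lower and 2 higher. The gene of the list with the highest level, *Sap-r*, which encodes the saposin precursor, averaged 997 CPM and was called in no comparison.

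Of 23 genes that signal to autophagy, 6 rose and 4 fell by late wandering in NL (median 0.09), and 14 rose and 2 fell in ZI (median 0.57), so 26.1% rose in NL and 60.9% in ZI. Over all genes 18.4% rose in NL and 18.7% in ZI, and of those with at least 10 CPM 19.2% and 36.9%. Of the latter 39.9% fell in NL and 23.7% in ZI. With upper-quartile factors 16 rose and 4 fell in NL, and 14 rose and 3 fell in ZI, and the shares of all genes under those factors are not given here. By prepupa 9 had risen and 4 fallen in NL, and 12 had risen and 4 fallen in ZI. Of the genes with at least 10 CPM 29% had risen and 41.5% fallen in NL, and 31.4% and 36.3% in ZI. The ecdysone-induced factor *Eip93F*, which is required for autophagy in the fat body, had 65.9, 71.3 and 53.1 CPM in NL prepupal libraries, against 4.35, 4.63 and 5.41 CPM in NL early ones. In ZI it had 64.3, 64.1 and 42.9 CPM in prepupal libraries and 5.32, 4.99 and 4.80 CPM in early ones. It changed by 3.72 in NL and 3.50 in ZI on the log2 scale. *EcR*, the ecdysone receptor, fell by 1.93 in NL and by 2.04 in ZI over the same interval, and *Eip75B* rose by 2.05 and 2.06. Between populations none of the 23 was called at the early or prepupal stage, where 7.53% and 4.75% of all genes were. At late wandering 11 of the 23 were lower and 1 higher in NL than in ZI, with *InR*, the insulin receptor, at −0.85 (adjusted p = 0.00138). That is 47.8% lower, beside 30.2% of the genes with at least 10 CPM, and with upper-quartile factors 6 were lower and 2 higher, with *InR* at −0.63 (adjusted p = 0.0117). With the chemosensory covariate none was lower and 1 higher. The rise of *foxo*, *Akt* and *Eip74EF* by late wandering was smaller in NL, by −0.75, −0.69 and −0.66 (adjusted p = 0.0286, 0.0367 and 0.0387), and with upper-quartile factors by −0.43, −0.38 and −0.35, which were not called (adjusted p = 0.0720, 0.0774 and 0.0988). The gene of the list with the highest level was *br*, another ecdysone-induced factor, at a mean of 246 CPM.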

How the data were processed

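The deposited table holds raw counts for each gene in 18 libraries, which the authors neither normalized nor pooled over replicates. Per the paper's methods, ribosome-depleted RNA of pooled fat bodies was sequenced as paired ends and mapped with NextGenMap to the FlyBase 6.21 transcriptome, pairs whose mates hit different transcripts or genes were dropped, and the counts of a gene's transcripts were added up. Whether strand was used is not given in the sources used here. The authors' filter of a mean of at least 15 counts was applied, which kept 12460 genes. Symbols and coordinates came from the Ensembl 115 annotation of the release 6 assembly, where 16343 genes matched by identifier and 76 by annotation number, and 19 were left with that number as their name.

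Comparisons were fitted in edgeR 4.0.16 (R 4.3.3) by its quasi-likelihood F-test with TMM factors, 1 factor of 6 levels over all 18 libraries, and Benjamini-Hochberg adjustment over all genes tested, called at an adjusted p under 0.05. Contrasts gave stages within populations, populations within stages and their interaction. Each standard error is the size of the log2 fold change divided by the root of its F value. CPM was TMM-normalized, log2 fold changes came from the edgeR fit at its default prior count, and TPM used the gene length of the deposited table. A prior count of 2 was used for the log2 CPM behind the correlations between libraries. Replicates are separate pools of the same strains, so p-values measure the spread between such pools. The fit was tested on simulated data. Tables and figures used Python 3.11.15 with numpy 2.4.6, pandas 2.3.3 and matplotlib 3.10.9.

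Values of every library are given for members called with an absolute log2 fold change of at least 1 between the early and a later stage, up to 8 members called between the populations at any stage, up to 6 called in the interaction, and the members with the highest and lowest mean TPM. For the 2 further lists, the plan was to name up to 4 called genes with the largest change and the gene with the highest mean CPM. More were named from the signalling list, where *foxo*, *Akt* and *Eip74EF* are given with their interaction values. *Snap29* was added after its values were seen. The members and all lists, cell type markers included, were chosen with earlier results of these data known. Alternatives were RLE, upper-quartile and well-expressed-gene factors, no filter or a mean of at least 100 counts, DESeq2 1.42.0, a replicate block, only the groups compared, a chemosensory covariate that an earlier analysis of these data had used, and leaving out each library. Promoter and protein sequences were not used here, and the planned motif search was not run.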

Additional observations from a re-analysis of the deposited data

Results flagged for a closer look

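The rise of *Snap29* between early and late wandering differed between the populations by −0.63 on the log2 scale (NL minus ZI, SE 0.18, edgeR adjusted p = 0.0438), by a test of the difference itself. The NL change was 0.26 and the ZI change 0.90. The difference lost its call in 9 of the 18 fits that left out 1 library. It was also not called with upper-quartile factors, factors of well-expressed genes or a mean of at least 100 counts. The same held with the replicate block (adjusted p = 0.0524) and the chemosensory covariate (adjusted p = 0.394).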

How the results depend on the processing

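Every named fold change kept its direction except that of *Vamp7* between populations at late wandering, which was 0.0344 with the chemosensory covariate. The scaling and the filter moved counts most. For late over early in NL, 12 members were called, 24 with upper-quartile factors, 24 with factors of well-expressed genes and 21 with a mean of at least 100 counts. For prepupal over late in NL, 5 were called and 9 with upper-quartile factors. In ZI that comparison called 1 member, 0 with RLE factors, without a filter or with the replicate block, 6 with upper-quartile factors, 5 with factors of well-expressed genes, 5 with a mean of at least 100 counts and 2 with the chemosensory covariate. Between populations at late wandering 9 were called, 2 with upper-quartile factors, 3 with factors of well-expressed genes, 1 with a mean of at least 100 counts, 0 with the chemosensory covariate and 2 with only the groups compared. At early wandering 0 were called, 1 under each of the first 3 of these settings and 3 with the covariate. At the prepupal stage 0 were called, 2 under each of those 3, 1 with the covariate and 1 with only the groups compared. The interaction called 0, and 1 with DESeq2. The counts of the 2 lists of other genes under these settings were added after seeing the data. Among all genes at late wandering, 1711 were higher and 1752 lower in NL with TMM, 2441 and 885 with upper-quartile factors and 2743 and 773 with factors of well-expressed genes, and members higher and lower in NL prepupal over early libraries were 15 and 2 with TMM and 25 and 0 with upper-quartile factors. The causes of these shifts were not tested. Counts of all genes under the other factors are given here only for the populations at late wandering.

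Leaving out each library in turn gave 8 to 18 calls for late over early in NL and 16 to 29 in ZI, 4 to 6 and 0 to 2 for prepupal over late, and 14 to 19 and 13 to 24 for prepupal over early. Between populations it gave 0 to 2 at early, 1 to 14 at late and 0 to 1 at prepupal, and 0 to 3 for the interaction. Of 828 such refits of the called fold changes of the 10 members named by rule and of the *Snap29* interaction, 62 lost the call. Other fold changes named above were not in that count, such as those of *Mitf* and *Vps16A*, whose NL calls were lost in 8 and 7 fits. Same-numbered libraries of different groups correlated at −0.39 to 0.43 in their deviations, with 15 of 45 pairs over 0.1, and different-numbered ones at −0.50 to 0.46. The numbers were therefore not used as pairs, although deviations from means of 3 libraries cannot exclude a shared batch. Prepupal library 2 had the lowest total of its group in both populations (14998610 counts in NL and 17830666 in ZI). With the replicate block 8 members were called between populations at late wandering and 23 for late over early in ZI. Low counts limit *Atg8b*, *Atg10* and *Atg12*, and *Atg8b* was not in the fit with a mean of at least 100 counts.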
